A study of Homo sapiens with 6 samples.

Results

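The mRNAs of 10 genes of cellular iron uptake, export, storage and sensing were examined in HT1080 cells, a human fibrosarcoma line, with and without stable overexpression of PGK1, the glycolytic enzyme phosphoglycerate kinase. The genes were chosen by symbol (TFRC, STEAP3, SLC11A2, SLC40A1, FTH1, FTL, NCOA4, IREB2, ACO1 and FBXL5), and all 10 were found among the 21619 entries of the count table. The control group, labelled WT, and the overexpressing group, labelled PGK1_OE, held 3 polyA RNA libraries each, and no drug or iron treatment is named for either group. The data columns of the WT group are headed v511, a name that the labels do not explain. Whether the control carried an empty vector, which promoter drove PGK1 and whether the cells were a clone or a pool were not stated. No label ties a replicate to its own culture, so every p-value below reflects variation among these libraries alone, and that variation may be technical.

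Libraries held between 34425162 and 40538274 counts and carried a single batch label. PGK1 itself measured 523 ± 4.03 in WT libraries and 12660 ± 597 in PGK1_OE libraries as normalised CPM, which are counts scaled to the size of the library (SD, n = 3 each). All 6 mesenchymal markers examined were expressed, with a summed level of 3358 to 3836 CPM in the WT libraries and 5965 to 6091 CPM in the PGK1_OE libraries. VIM is the largest term of that sum, at 1632 to 2060 CPM in WT and 3553 to 3597 CPM in PGK1_OE. CALD1 had the opposite order, with 243 to 253 CPM in WT and 125 to 140 CPM in PGK1_OE. Every epithelial, erythroid and hepatocyte marker stayed under 1 CPM in each library. Of the immune markers, PTPRC and CD14 were at 0 and CD163 was above 1 CPM in the WT libraries and between 0.227 and 0.429 CPM in the PGK1_OE libraries.

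Cells take up most of their iron as transferrin bound to its receptor, reduce it in the endosome and carry it into the cytosol, where ferritin, a shell of heavy and light chains, stores what is not used. A pair of iron regulatory proteins, encoded by ACO1 and IREB2, bind a hairpin called the iron-responsive element (IRE) when iron is scarce. Bound to an IRE before the coding sequence they block translation, as in ferritin mRNA, and bound to IREs after it they protect the mRNA from decay, as in transferrin receptor mRNA. Iron-dependent lipid peroxidation drives ferroptosis, the cell death that the title of the series names.

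IREs in these mRNAs are shown first, because they set the members apart by the kind of control that iron is known to exert on them. Sequences are from GENCODE 29 transcripts on GRCh38, read along the mRNA and written as DNA, with the 6-base loop in capitals. The search was for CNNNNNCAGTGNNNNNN on the transcript strand in untranslated regions, with the 5 bases after the unpaired C able to pair (A-T, G-C or G-T) with the last 5.
TFRC site 1, chr3:196050979-196051007, minus strand, 3′ UTR: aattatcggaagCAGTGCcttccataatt
TFRC site 2, chr3:196050575-196050603, minus strand, 3′ UTR: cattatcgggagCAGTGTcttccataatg
TFRC site 3, chr3:196050510-196050538, minus strand, 3′ UTR: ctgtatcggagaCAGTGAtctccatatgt
TFRC site 4, chr3:196050463-196050491, minus strand, 3′ UTR: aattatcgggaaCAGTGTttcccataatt
FTH1, chr11:61967574-61967602, minus strand, 5′ UTR: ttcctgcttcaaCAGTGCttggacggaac
FTL, chr19:48965335-48965363, plus strand, 5′ UTR: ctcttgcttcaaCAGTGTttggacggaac
SLC40A1, chr2:189580661-189580689, minus strand, 5′ UTR: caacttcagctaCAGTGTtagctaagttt
CDC14A, chr1:100518583-100518611, plus strand, 3′ UTR: tatttacatgtaCAGTGTtacattatata

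TFRC held 4 such hairpins within 545 bases of its 3′ UTR, while FTH1, FTL and SLC40A1 each held 1 in the 5′ UTR. A hairpin with another loop or an imperfect stem would not be found, so these counts may be too low. Of all protein-coding genes with an annotated 5′ UTR, 0.189% held a match there, and 0.689% held one in the 3′ UTR. No match was found in STEAP3, SLC11A2, NCOA4, IREB2, ACO1 or FBXL5, which says only that this strict pattern is not in their annotated UTRs. A match is a description of the sequence, and RNA binding was not measured here.

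Of the 10 genes, 9 passed the low-count filter. Among these 9, 8 were higher and 1 was lower in PGK1_OE than in WT by edgeR's quasi-likelihood test at a Benjamini-Hochberg adjusted p under 0.05. The same test called 71.2% of all 14322 entries tested, 35.4% higher and 35.8% lower, so that a call is common in this comparison. The median log2 fold change of the 9 genes was 0.46, against -0.02 over all entries. The members were chosen with earlier results of these data known, so this contrast only describes them. PGK1_OE and WT values did not overlap for 8 of the 9 genes, and 76.4% of all entries tested were separated in this way. Against a minimum change of 1.5-fold (edgeR glmTreat), 3 of the 9 genes were called, TFRC, STEAP3 and FTL, and all 3 were higher. That stricter test called 32.0% of all entries tested (16.2% higher and 15.8% lower).

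**Figure D1:**
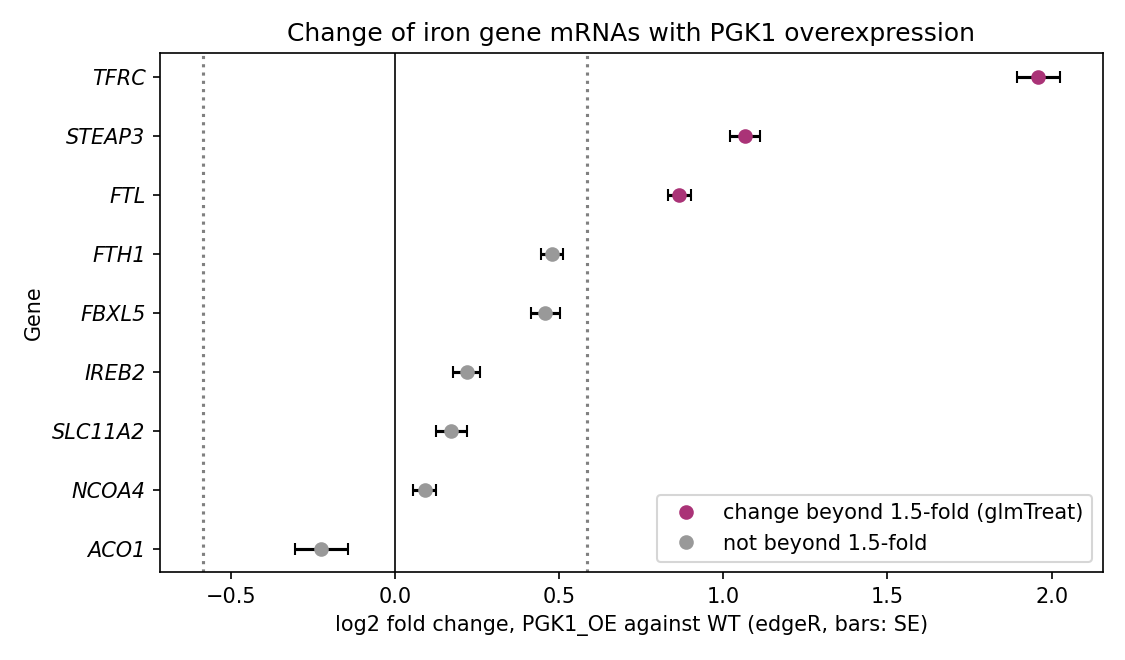
Log2 fold change of each tested iron gene, PGK1_OE against WT, as points with bars of 1 SE from edgeR (3 libraries per group), where dotted lines mark a 1.5-fold change in either direction. TFRC, STEAP3 and FTL lie beyond the upper line, FTH1, FBXL5, IREB2, SLC11A2 and NCOA4 lie between 0 and that line, and ACO1 is the 1 gene below 0.

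The uptake genes rose, with a large change in the receptor, a moderate one in the reductase and a small one in the transporter. TFRC (ENSG00000072274, chromosome 3, 196027183 to 196082189, minus strand of GRCh38) encodes the transferrin receptor that brings iron-loaded transferrin into endosomes. Its mRNA measured 501, 431 and 520 normalised CPM in WT replicates 1, 2 and 3, and 1853, 1902 and 1894 CPM in the PGK1_OE replicates. The lowest PGK1_OE library was thus far above the highest WT library, and WT replicate 2 was the lowest of all. This was a log2 fold change of 1.96 (SE 0.07, adjusted p = 9.97e-09 by edgeR), a 3.89-fold rise. Of all entries tested, 3.35% had a higher log2 fold change. In bulk RNA of a whole culture, more TFRC mRNA in each cell cannot be told apart from more cells that express it, and the same holds for the other genes. TFRC took 0.0443% to 0.0525% of the counts of a WT library and 0.183% to 0.187% of those of a PGK1_OE library. TFRC overlaps a processed pseudogene, AC024937.1, over 560 bases and a small nuclear RNA entry, RNU7-18P, over 62 bases, both on the opposite strand, and its value is uncertain to that extent.

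STEAP3 (ENSG00000115107, chromosome 2, 119223831 to 119265652, plus strand) encodes the endosomal ferrireductase that reduces transferrin-derived iron. It measured 108, 97.7 and 104 CPM in WT and 219, 221 and 209 CPM with PGK1 overexpression. The groups were well apart, and the log2 fold change was 1.07 (SE 0.05, adjusted p = 2.25e-09 by edgeR), a 2.09-fold rise. STEAP3 overlaps the antisense gene STEAP3-AS1, and because the strand setting of the counting is not given, its value is uncertain.

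SLC11A2 (ENSG00000110911, chromosome 12, 50979401 to 51028566, minus strand) encodes DMT1, the transporter that moves reduced iron from the endosome to the cytosol. Its levels were 50.7, 51.1 and 49.9 CPM in WT and 56.9, 56.4 and 57.5 CPM in PGK1_OE. The groups did not overlap, although the difference was small, a rise of 12.6% (log2 fold change 0.17, SE 0.05, adjusted p = 0.00637 by edgeR). On the log2(FPKM + 1) scale, from the deposited length-normalised values, the call was lost (log2 fold change 0.12, adjusted p from limma = 0.0981). Some SLC11A2 transcripts are known to carry an IRE and others not, and the gene-level counts do not separate them. SLC11A2 overlaps a small nuclear RNA entry, RNU6-87P, over 108 bases on the same strand.

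The exporter was not detected. SLC40A1 (ENSG00000138449, chromosome 2, 189560579 to 189583758, minus strand) encodes ferroportin, the only known exporter of iron from mammalian cells, and had 0 counts in each of the 6 libraries. At these depths a count of 0 allows a level of up to 0.0740 to 0.0871 CPM per library (3 counts, counting error only). Among 9 other genes of export and of its systemic control, 4 did not pass the low-count filter, HAMP, the hormone that acts on ferroportin, among them with 0 counts throughout. Of the 5 tested, 1 rose, the gene of neogenin, NEO1 (0.42, SE 0.10, adjusted p = 0.00196 by edgeR), whose value is uncertain because it overlaps an antisense gene. Calls thus made up 20% of these 5, against 71.2% of all entries tested. This list was chosen with earlier results of these data known. The ferroxidase HEPH measured 8.83 ± 0.892 CPM without and 7.76 ± 0.760 CPM with PGK1 overexpression (adjusted p = 0.231 by edgeR). BMP6, the ligand that induces HAMP in liver, stood at 5.65 ± 1.33 and 6.75 ± 0.604 CPM (adjusted p = 0.225 by edgeR), and passed without WT replicate 2 (log2 fold change 0.45, adjusted p = 0.0406 by edgeR).

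Both ferritin chains rose, the light chain more than the heavy chain. FTL (ENSG00000087086, chromosome 19, 48965301 to 48966878, plus strand) encodes the light chain, which aids formation of the iron core. It measured 1059, 1009 and 1049 CPM in the WT libraries against 1840, 1934 and 1909 CPM in the PGK1_OE libraries. The groups were clearly separated, with a log2 fold change of 0.87 (SE 0.04, adjusted p = 1.53e-09 by edgeR), a 1.82-fold rise.

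FTH1 (ENSG00000167996, chromosome 11, 61959718 to 61967660, minus strand) encodes the heavy chain, which holds the ferroxidase site that oxidises iron for storage. It measured 717, 745 and 749 CPM in WT and 1022, 1025 and 1030 CPM in PGK1_OE. The PGK1_OE libraries lay close together and all above WT, and the log2 fold change was 0.48 (SE 0.03, adjusted p = 1.16e-07 by edgeR), a 1.39-fold rise. FTH1 overlaps BEST1 on the opposite strand over 5798 bases, and BEST1 went from 105 ± 3.07 CPM in WT to 1.03 ± 0.719 CPM in PGK1_OE. With the counts of both genes added, an alternative chosen after seeing the data, the level was 842 ± 14.8 CPM in WT and 1027 ± 3.48 CPM in PGK1_OE. That sum differed by 0.29 on the log2 scale (SE 0.03, adjusted p = 7.20e-06 by edgeR), smaller than that of FTH1 alone and in the same direction. GENCODE 29 lists 25 processed copies of FTH1 and 16 of FTL, which were not analysed here and could share reads with the ferritin genes.

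Together the ferritin genes took 0.179%, 0.180% and 0.181% of counts in WT and 0.282%, 0.291% and 0.289% with PGK1 overexpression. The ratio of FTH1 to FTL, taken from the deposited FPKM values so that it is per length, was 0.561, 0.659 and 0.606 in WT and 0.507, 0.483 and 0.480 in PGK1_OE. Every PGK1_OE library thus had a lower share of heavy chain mRNA than every WT library. The log2 ratio differed by -0.31 (two-sided exact permutation test p = 0.10, the smallest p that 3 against 3 libraries allow). These are mRNA levels, and ferritin protein was not measured here.

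NCOA4 (ENSG00000266412, chromosome 10, 46005088 to 46030714, minus strand) encodes the receptor that delivers ferritin to autophagosomes for iron release. It measured 336, 339 and 331 CPM in WT and 366, 357 and 347 CPM in PGK1_OE. The groups did not overlap, but the gap between the nearest libraries was about as wide as the SD of PGK1_OE (9.19 CPM). The difference amounted to 0.09 on the log2 scale (SE 0.04, adjusted p = 0.0384 by edgeR). NCOA4 no longer passed when WT replicate 1 or 3 was left out (adjusted p = 0.0667 by edgeR and 0.0928) or PGK1_OE replicate 1 or 2 (0.0786 and 0.0718). Nor did it pass with scaling by library totals alone (log2 fold change 0.04, adjusted p = 0.280 by edgeR) or on the log2(FPKM + 1) scale (0.02, adjusted p from limma = 0.730).

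Of the sensing genes, IREB2 and FBXL5 rose, and ACO1 gave a weak fall. IREB2 (ENSG00000136381, chromosome 15, 78437431 to 78501456, plus strand) encodes the iron regulatory protein whose amount is set by degradation. It measured 90.3, 90.4 and 89.9 CPM in WT and 105, 102 and 108 CPM with PGK1 overexpression. All PGK1_OE values were above the narrow WT range, with a log2 fold change of 0.22 (SE 0.04, adjusted p = 4.81e-04 by edgeR), a rise of 16.4%. On the log2(FPKM + 1) scale the change was 0.15 (adjusted p from limma = 0.0193). IREB2 overlaps an antisense gene, and its value is uncertain for that reason.

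FBXL5 (ENSG00000118564, chromosome 4, 15604539 to 15681679, minus strand) encodes the iron-binding F-box protein that targets iron regulatory proteins for degradation. It measured 72.5, 69.5 and 74.2 CPM in WT and 101, 97.7 and 98.3 CPM in PGK1_OE. The groups were separated by more than the spread in either, with a log2 fold change of 0.46 (SE 0.04, adjusted p = 1.99e-06 by edgeR). On the log2(FPKM + 1) scale the rise was smaller (0.22, adjusted p from limma = 0.00183). FBXL5 overlaps FAM200B over 18 bases on the opposite strand.

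ACO1 (ENSG00000122729, chromosome 9, 32384603 to 32454769, plus strand) encodes the cytosolic aconitase that becomes an iron regulatory protein when it loses its iron-sulfur cluster. Its levels were 183, 144 and 167 CPM in WT and 139, 146 and 138 CPM in PGK1_OE. WT replicate 2 lay within the range of the PGK1_OE libraries, so the groups overlapped. The difference amounted to -0.23 on the log2 scale (SE 0.08, adjusted p = 0.0370 by edgeR). ACO1 no longer passed without WT replicate 1 (log2 fold change -0.14, adjusted p = 0.0821 by edgeR) or WT replicate 3 (0.104), and without PGK1_OE replicate 1, 2 or 3 (0.112, 0.0535 and 0.0839). It was also lost without the low-count filter (adjusted p = 0.0606 by edgeR).

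The deposited FPKM values of ACO1 gave a wider and less even picture than its counts. They were 40.2, 27.4 and 39.6 FPKM in WT and 17.1, 29.6 and 16.9 FPKM in PGK1_OE. Replicate 2 of each group stood apart from the other two of its group, and the WT value of that pair was the lower one. On the log2(FPKM + 1) scale the difference was -0.75 (SE 0.27, adjusted p from limma = 0.0509). The tool that computed FPKM from the reads is not given in the sources.

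**Figure D2:**
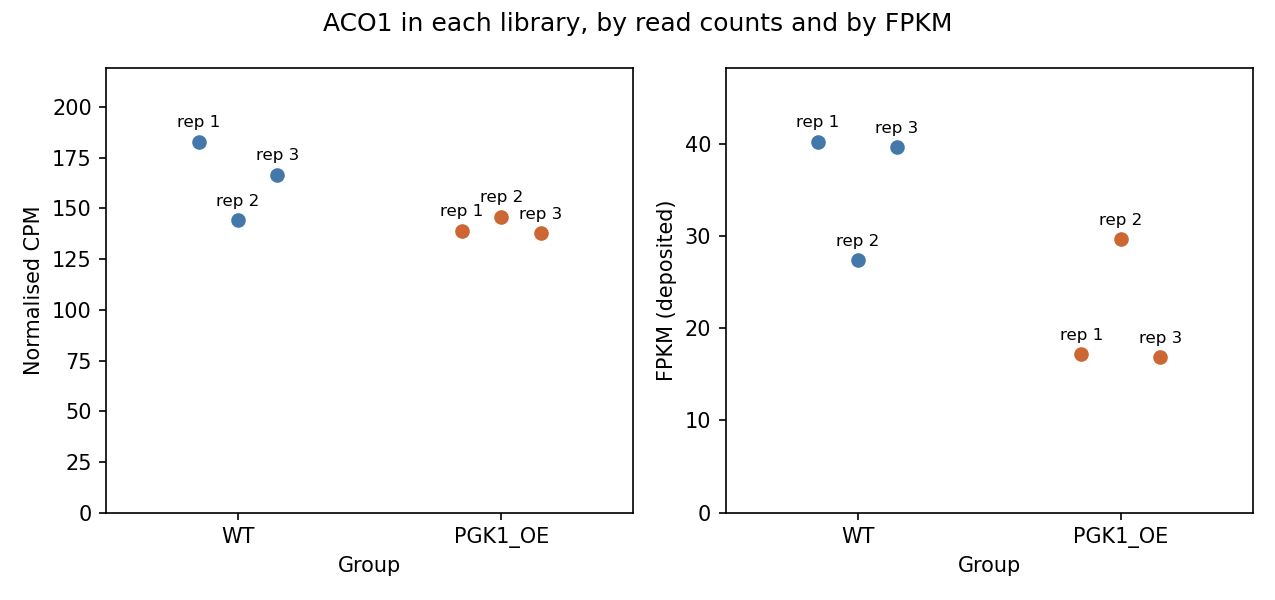
ACO1 in each library as normalised CPM (left axis, from counts) and as deposited FPKM (right axis), with WT in blue and PGK1_OE in orange and replicate numbers beside the points. By CPM, WT replicate 2 (144) lies within the PGK1_OE range, and by FPKM, PGK1_OE replicate 2 (29.6) lies above WT replicate 2 (27.4).

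The ratio of IREB2 to ACO1 per length was 0.344, 0.509 and 0.348 in WT, against 0.904, 0.508 and 0.933 in PGK1_OE. The groups overlapped through replicate 2 of each. The log2 ratio differed by 0.94 between groups (two-sided exact permutation test p = 0.20). From counts per kilobase of annotated exon the difference was 0.44 (exact permutation test p = 0.10, the smallest possible).

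Per length, the ferritin chains were the most abundant of these mRNAs in WT cells, with 1129 ± 20.8 FPKM for FTL and 687 ± 42.7 FPKM for FTH1. NCOA4 (94.4 ± 3.49 FPKM) and TFRC (91.6 ± 8.03 FPKM) followed and did not differ beyond their spread. FBXL5 (39.7 ± 0.861 FPKM) and ACO1 (35.7 ± 7.26 FPKM) were likewise within their spread of each other. STEAP3 stood at 24.8 ± 1.65 FPKM. IREB2 (13.8 ± 0.0755 FPKM) and SLC11A2 (13.1 ± 0.710 FPKM) were lowest, apart from SLC40A1 at 0, and were about 1 SD apart.

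In PGK1_OE cells FTL (1992 ± 48.8 FPKM) and FTH1 (976 ± 14.5 FPKM) again led. TFRC, at 348 ± 4.43 FPKM, now stood well above NCOA4 at 95.6 ± 3.85 FPKM. STEAP3 (48.9 ± 1.77 FPKM) and FBXL5 (46.6 ± 1.81 FPKM) lay next, with overlapping libraries. ACO1 (21.2 ± 7.29 FPKM) and IREB2 (15.4 ± 0.355 FPKM) did not differ beyond the spread of ACO1, and SLC11A2 was at 14.3 ± 0.555 FPKM.

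**Figure D3:**
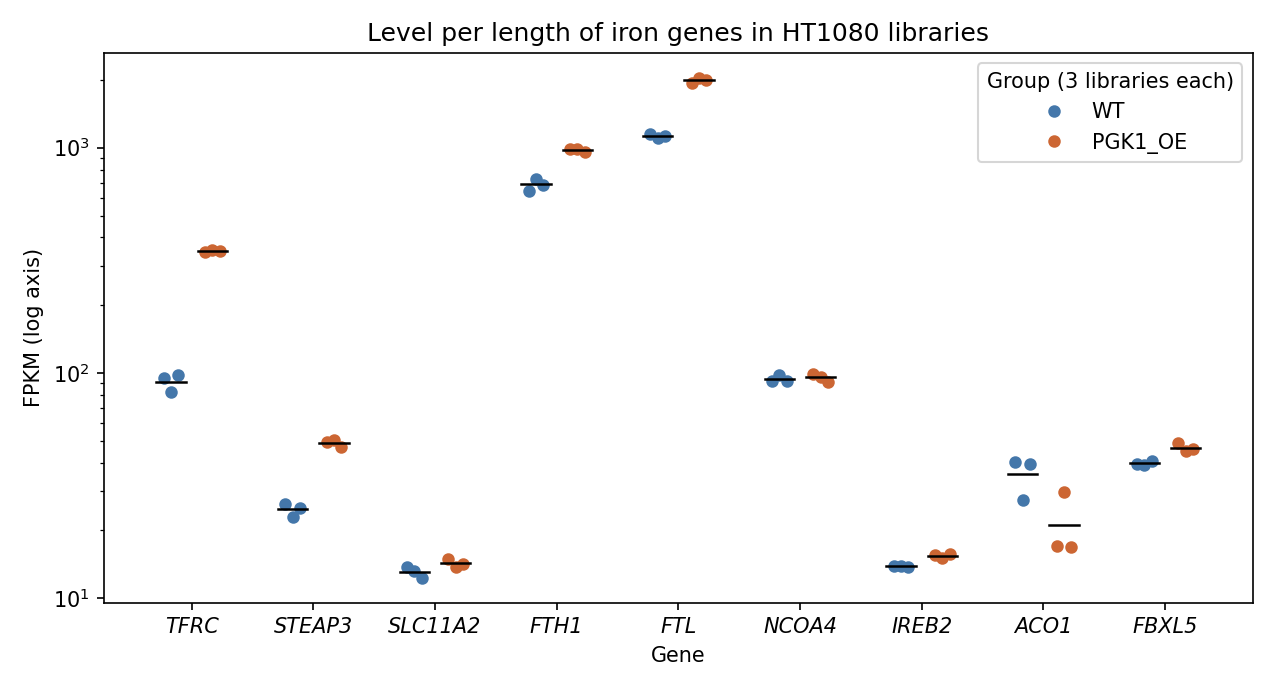
Deposited FPKM (log axis) of the 9 detected iron genes in each of the 6 libraries, WT in blue and PGK1_OE in orange, with a black line at each group mean. TFRC moves from the level of NCOA4 in WT (91.6 against 94.4 FPKM) to well above it in PGK1_OE (348 against 95.6 FPKM), and the ACO1 libraries are spread widely in both groups.

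Other genes of iron handling were described by role, in lists chosen with earlier results of these data known. Counts and medians are from the same edgeR test, with no test of a list. They are to be read against the 71.2% called over all entries. Of 11 other tested genes of transferrin receptor trafficking, 8 rose and none fell at this threshold, with a median log2 fold change of 0.47. The clathrin adaptor subunits AP2M1 (0.83, SE 0.04) and AP2A1 (0.89, SE 0.06) and the retromer subunit VPS35 (0.77, SE 0.04), which returns receptors to the cell surface, were those with the smallest adjusted p. AP2M1 went from 402 ± 19.4 to 716 ± 14.3 CPM (adjusted p = 6.54e-09 by edgeR). AP2A1 overlaps FUZ on the opposite strand and its value is uncertain.

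Of 11 other tested genes of uptake, reduction and endosomal release, 5 rose, 1 fell and 5 did not pass, with a median of -0.13. The surface ferrireductase CYBRD1 rose from 34.8 ± 2.51 to 65.5 ± 2.70 CPM (0.91, SE 0.06, adjusted p = 1.20e-07 by edgeR). HFE, which binds the transferrin receptor, rose from 2.21 ± 0.141 to 6.27 ± 0.567 CPM (2.83-fold, adjusted p = 9.34e-06 by edgeR), while the log2 difference was 0.49 on the log2(FPKM + 1) scale and 0.93 on the log2(FPKM + 0.1) scale. SLC39A14, a transporter of iron not bound to transferrin, fell from 410 ± 5.98 to 338 ± 7.70 CPM (-0.28, SE 0.03, adjusted p = 1.99e-05 by edgeR). SLC39A14 overlaps a pseudogene on the opposite strand and its value is uncertain. The transferrin gene TF itself did not pass the low-count filter.

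Factors known to degrade TFRC mRNA were lower in PGK1_OE, all 3 of those listed, with a median of -0.44. The share called lower over all entries tested was 35.8%. This list was chosen with earlier results of these data known, and a link to the TFRC level was not tested. The endonuclease gene ZC3H12A, encoding Regnase-1, went from 12.9 ± 0.701 to 7.24 ± 0.0415 CPM (-0.83, SE 0.11, adjusted p = 2.47e-05 by edgeR). RC3H2, encoding Roquin-2, went from 125 ± 4.26 to 92.3 ± 2.07 CPM (-0.44, SE 0.04, adjusted p = 2.19e-06 by edgeR). RC3H1, encoding Roquin-1, went from 39.3 ± 1.17 to 35.2 ± 1.62 CPM (-0.16, SE 0.06, adjusted p = 0.0294 by edgeR). That last call was lost with DESeq2 (adjusted p = 0.0685), and by edgeR without WT replicate 1, 2 or 3 (0.0612, 0.101 and 0.0537) or PGK1_OE replicate 2 or 3 (0.0991 and 0.0910).

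Iron chaperones and factors of ferritin turnover were split. Of 10 tested, 4 rose, 5 fell and 1 did not pass, with a median of -0.12. PCBP1, which hands iron to ferritin, rose from 181 ± 3.36 to 376 ± 3.13 CPM (1.06, SE 0.03, adjusted p = 2.89e-10 by edgeR). MAP1LC3B, the autophagosome protein LC3B, fell from 539 ± 40.0 to 116 ± 1.54 CPM (-2.21, SE 0.05, adjusted p = 3.00e-11 by edgeR). The autophagy receptor NBR1 fell by 0.66 on the log2 scale (SE 0.05). MAP1LC3B overlaps FBXO31, and PCBP1 and NBR1 overlap noncoding genes, on the opposite strand, which makes their values uncertain.

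Partners of FBXL5 and factors of cytosolic iron-sulfur assembly, which decide whether the iron regulatory proteins are degraded or hold a cluster, were also split. Of 13 tested, 5 rose, 4 fell and 4 did not pass, with a median of 0.05. RBX1, the RING subunit of the ligase that FBXL5 joins, rose from 18.6 ± 1.14 to 44.3 ± 3.90 CPM (1.25, SE 0.08, adjusted p = 5.51e-08 by edgeR). CIAO2A (0.84, SE 0.06), which serves the cluster of ACO1, and the electron donor NDOR1 (0.67, SE 0.05) rose as well. RBX1, CIAO2A and NDOR1 had the smallest adjusted p of this list. The 4 genes that fell included other factors of cytosolic iron-sulfur assembly.

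Of 22 genes of mitochondrial iron import and iron-sulfur assembly, 11 rose, 6 fell and 5 did not pass, with a median of 0.21. The chaperone HSPA9 fell from 1257 ± 12.7 to 536 ± 22.5 CPM (-1.23, SE 0.04, adjusted p = 1.84e-10 by edgeR). The glutaredoxin GLRX5, a cluster carrier, rose from 38.8 ± 4.24 to 79.2 ± 2.89 CPM (1.03, SE 0.07, adjusted p = 2.42e-07 by edgeR). The transporter ABCB8 rose by 0.97 (SE 0.07), and by 0.47 on the log2(FPKM + 1) scale. ABCB8 and GLRX5 overlap antisense genes and their values are uncertain.

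Of 3 other tested mRNAs reported to carry an IRE, 1 rose, 1 fell and 1 did not pass. The hairpin search found a match in CDC14A and none in EPAS1 or CDC42BPA. EPAS1, the hypoxia factor HIF-2α, went from 236 ± 6.69 to 261 ± 5.36 CPM (0.14, SE 0.04, adjusted p = 0.00450 by edgeR), a call lost on the log2(FPKM + 1) scale (adjusted p from limma = 0.0753). The phosphatase CDC14A, with the 3′ UTR hairpin shown above, went from 7.64 ± 0.503 to 4.03 ± 0.764 CPM (-0.92, SE 0.17, adjusted p = 3.77e-04 by edgeR). CDC42BPA, a kinase, stood at 80.4 ± 7.09 and 84.3 ± 7.95 CPM (0.07, SE 0.08, adjusted p = 0.492 by edgeR). Of the mRNAs with a hairpin found in the 3′ UTR, TFRC was higher and CDC14A was lower. FTH1 and FTL, with a hairpin in the 5′ UTR, were both higher. Gene-level counts do not separate CDC14A transcripts with the hairpin from any without it. Whether IREs had a part in any of these changes was not tested. CDC14A and CDC42BPA overlap noncoding genes, and their values are uncertain.

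**Figure D4:**
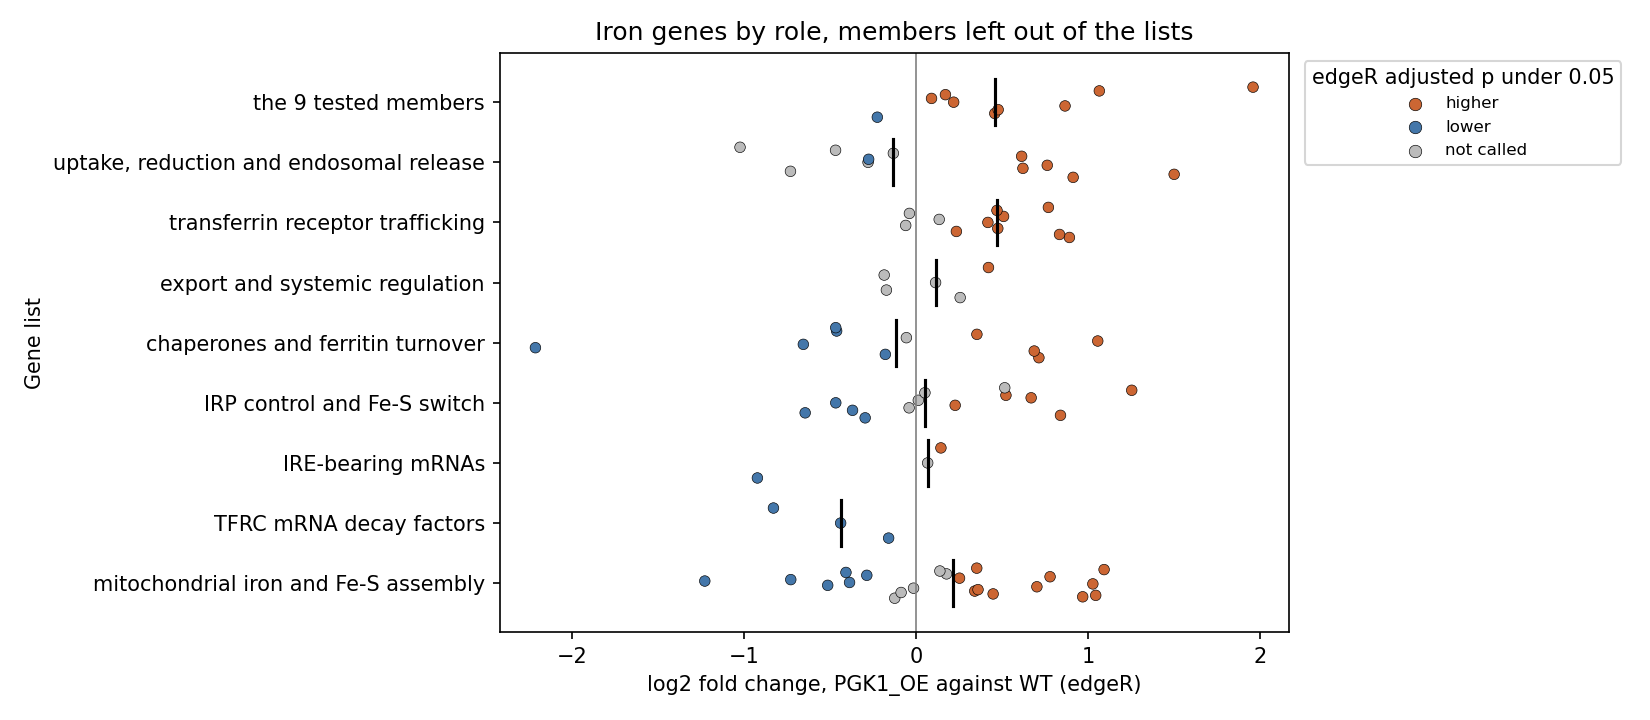
Log2 fold change (PGK1_OE against WT, edgeR) of each tested gene by role, colored by whether it was called higher, lower or not called at an adjusted p under 0.05, where black lines are medians and the members are left out of the lower rows. The trafficking genes lie at or above 0 except for 2 that were not called, and the lists of ferritin turnover and iron-sulfur assembly spread to both sides.

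The genes whose pattern over the 6 libraries was most like that of TFRC were sought among 6343 other named genes with a mean log2 CPM of at least 5. Likeness was the Euclidean distance between log2 CPM values centred on each gene's own mean. The closest were the actin-bundling gene FSCN1 (distance 0.0706), the condensin subunit NCAPD3 (0.0791) and the glycolytic enzyme PGAM1 (0.0835). Their log2 fold changes were 1.96, 1.98 and 1.95, and all 3 share with TFRC a WT replicate 2 below the other WT libraries. The distance selects for both traits, so neither is a separate result. With 6 libraries in 2 groups, this likeness mostly restates a similar difference between groups. NCAPD3 overlaps JAM3 and VPS26B on the opposite strand.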

How the data were processed

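PolyA RNA-seq of 6 HT1080 libraries was analysed, with groups from the sample titles and table columns matched through the sample descriptions. The submitters' processing notes name fastp, HISAT and hg38; for versions, read counter, strand setting and annotation no source used here gives an answer. Raw counts per gene are as deposited by the authors. The deposited FPKM values are the authors' length- and depth-normalised values. Counts were fitted in R 4.3.3 with edgeR 4.0.16 (filterByExpr, TMM, robust quasi-likelihood, group as the only term, two-sided), adjusted by Benjamini-Hochberg over 14322 entries; SE is the absolute log2 fold change over the square root of F. Normalised CPM use TMM-scaled library sizes. Alternatives used limma 3.58.1 (on FPKM of at least 1 in 3 libraries) and DESeq2 1.42.0. Steps were tested on simulated counts in which few entries changed, in equal numbers up and down. That test does not cover scaling or error rates in a comparison where 71.2% of entries are called. Coordinates, overlaps and transcript sequences are from GENCODE 29 on GRCh38, the build of hg38. The members and gene lists were chosen with earlier results of these data known. Named genes are the members, PGK1, from each list the 3 genes lowest in adjusted p, the tested genes of the IRE list (1 is not reported here) and the 3 genes most like TFRC; TF and HAMP were named after their values were seen. Libraries of a group did not agree within sampling noise (chi-square over degrees of freedom, 7.67 to 14.6).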

Additional observations from a re-analysis of the deposited data

How the results depend on the processing

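Over 18 other settings, no tested member changed direction. The settings of an adjusted p under 0.01 and of 1.5-fold keep the main fold changes, so direction could not change there. TFRC, STEAP3 and FTL were called under every setting, and FTH1, IREB2 and FBXL5 under every one except the test against 1.5-fold. That test reduced the members called higher from 8 to 3 and all entries called from 10195 to 4576. The member called lower, ACO1, fell out (0 called) without the low-count filter, on log2(FPKM + 1) and log2(FPKM + 0.1), at an adjusted p under 0.01, against 1.5-fold and in the fit with a replicate block. With any 1 library left out there were 7 to 8 members higher, 0 to 1 lower and 9694 to 9901 entries called. CDC42BPA, not called, turned to -0.00591 and -0.00681 on the 2 FPKM scales. Same-numbered libraries did not deviate together (correlations -0.0134, -0.0129 and 0.0952), so the number was not taken to pair them. The replicate block gave 7 members higher and 9943 entries called. For the FTH1 to FTL and IREB2 to ACO1 ratios it left the log2 differences at -0.31 and 0.94 (exact sign-flip p = 0.25 and 0.50). With 3 pairs, 0.25 is the smallest p that the sign-flip test allows. Without 1 library these differences ranged from -0.37 to -0.25 and from 0.78 to 1.22. Adding counts of the processed ferritin copies to FTH1 and FTL was not run, since 0 entries of the table used carry such a symbol and there was nothing to add. Library totals in place of TMM shifted the median log2 fold change of all entries from -0.02 to -0.06. Genes with few counts, such as HFE and CDC14A, have wider counting error than the members.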
